A study of Mus musculus with 6 samples.

Results

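Growth factors, cytokines and hormones of the mouse lateral ventricular choroid plexus were compared between embryonic day 15 (E15) and the adult. The members are the transcript clusters whose deposited molecular function text names growth factor, cytokine, chemokine or hormone activity, without Wnt symbols and without clusters annotated to the immune response or the extracellular matrix. The rule gives 38 of the 3956 transcript clusters of the 2 tables used here and uses no measured value. A transcript cluster is the array's unit for a gene, and 4 of the 38 clusters carry the probe sets of more than 1 gene symbol.

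Both groups were lateral ventricular choroid plexus of healthy Swiss Webster mice, hybridised to 3 Affymetrix mouse exon arrays for each age. Per the labels, each E15 array held RNA pooled from 30 embryos of mixed sex, and each adult array held RNA pooled from 10 females. Age and sex therefore cannot be told apart in any difference given here, and the study's supplementary description gives other pool sizes and calls the E15 embryos unsexed. The RNA of both ages went through amplification in 2 rounds before labelling. Each table holds 1 merged normalised value per age on the log2 scale, centred near 0 for each cluster, and 0 columns hold a single array. No value per array, error or test can therefore be given, and the level of one gene cannot be set against that of another. Each difference below is on the log2 scale, with the E15 value subtracted from the adult one, so that values above 0 are higher in the adult. The fold is 2 raised to the size of the difference.

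Secreted ligands of these families bind receptors on the surface of the same or nearby cells and set growth, survival and differentiation through kinase or G-protein signalling. Antagonists and binding proteins hold the ligands in the fluid or matrix and limit their access to the receptors. The choroid plexus is a secretory epithelium over a vascular stroma, and it releases growth factors and hormone carriers into the cerebrospinal fluid that bathes the brain.

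At a threshold of 2-fold, 5 members were higher in the adult and 13 were higher at E15, and 20 differed by less. The adult share was 13.2% of the members, against 22.9% of all 3956 clusters. The E15 share was 34.2%, against 24.4% of all clusters. The median difference was −0.55 for the members and −0.16 for all clusters, while the median size of the difference was alike at 0.98 and 0.95. The members' median lay further towards E15 than that of the tables as a whole. With annotations made by electronic inference left out, 13 members remained, 3 higher in the adult and 3 at E15. Their median was 0.00, against −0.16 for all clusters. The counts and the median of the members thus depend on which annotations are kept, and the reason was not tested. At 3-fold, 3 members were higher in the adult and 4 at E15, against 8.87% and 9.98% of all clusters. With each age re-centred on its own median over all clusters, which adds 0.15 to every difference, 8 members were higher in the adult and 10 at E15, against 25.7% and 19.4% of all clusters.

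The 5 members higher in the adult were Tgfb2, Crhr2, Tgfa, Pdgfd and the cluster shared by Fgf2 and Bbs12. The 13 higher at E15 were Gdf5, Cmtm3, Tmpo, Mdk, Bmp1, Cmtm7, Bmp5, Pthlh, Tgfb3, Hdgfrp3, Fgf12, Apln and Pmch. The members just past the threshold were the shared Fgf2 cluster at 2.01-fold, Pmch at 2.02-fold and Apln at 2.05-fold. Those just short of it were Fgf15 at 1.99-fold, Egf at 1.95-fold and Gdf15 at 1.91-fold.

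**Figure D1:**
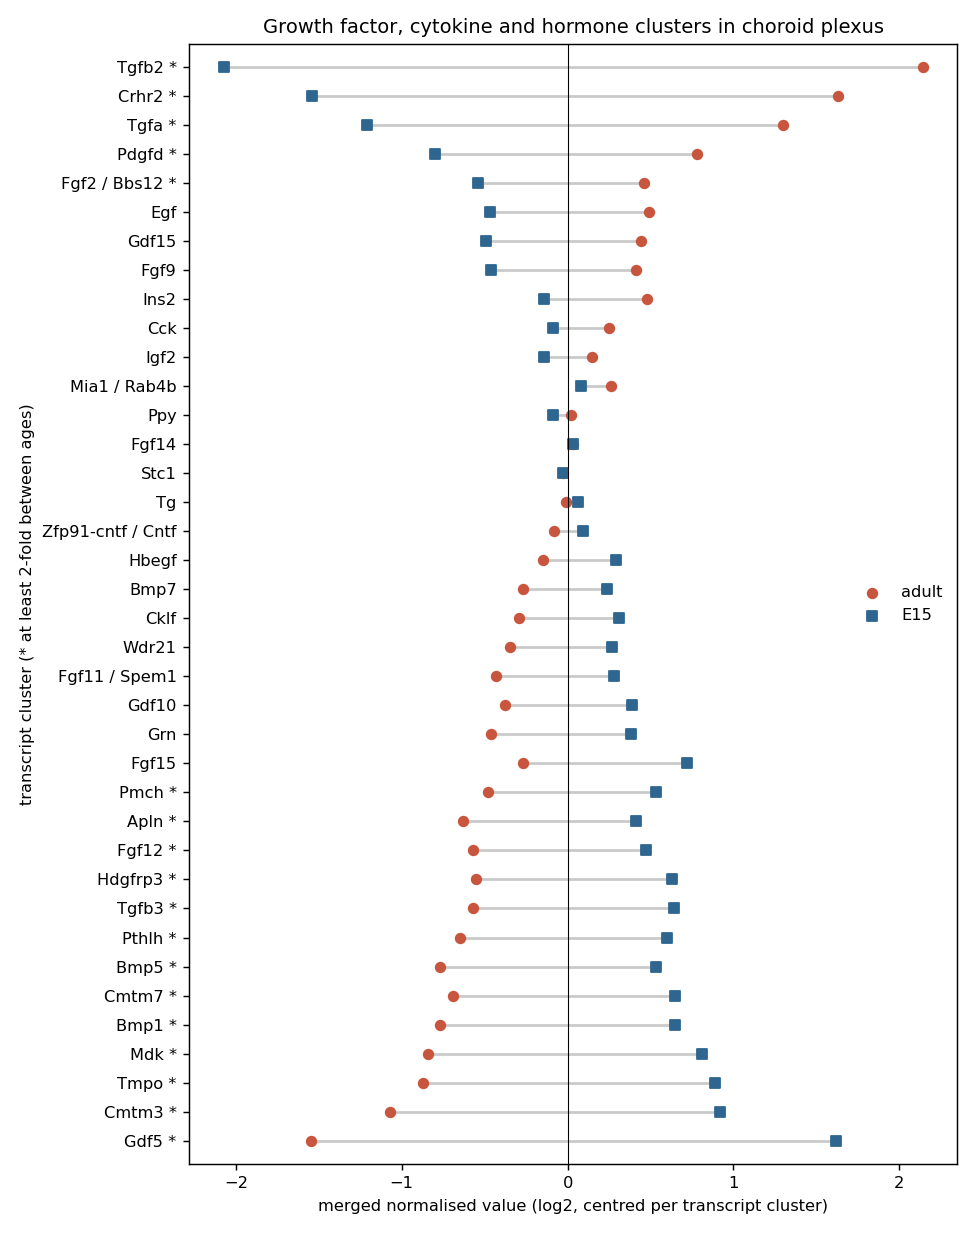
Merged normalised value (log2, centred for each cluster) of all 38 members in the adult (circles) and at E15 (squares), in the order of the difference, with an asterisk at clusters of at least 2-fold. Each point is 1 merged value with no error, and the longest lines belong to Tgfb2 (4.21), Crhr2 (3.17) and Gdf5 (−3.17).

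The stretch of promoter just before the annotated start is shown for the 3 members with the largest difference in each direction among those with exactly 1 RefSeq window, so that the upstream sequence can be read beside the values. All are 100 bases of GRCm38.p6 taken from RefSeq, written 5′ to 3′ on the strand of the gene and ending at the base before the start. Capitals mark the motifs searched on both strands: a TATA box (TATAAA), an E-box (CACGTG), a CRE half-site (TGACG, or CGTCA on the other strand) and a GC box (GGGCGG, or CCGCCC on the other strand). The first 3 belong to members higher in the adult and the last 3 to members higher at E15.
Tgfb2, chr1:186705990-186706089, minus strand: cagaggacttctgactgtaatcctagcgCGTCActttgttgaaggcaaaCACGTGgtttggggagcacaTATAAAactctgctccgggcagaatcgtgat
Crhr2, chr6:55133017-55133116, minus strand: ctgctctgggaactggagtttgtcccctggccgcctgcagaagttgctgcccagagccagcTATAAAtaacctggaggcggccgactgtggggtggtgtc
Tgfa, chr6:86195122-86195221, plus strand: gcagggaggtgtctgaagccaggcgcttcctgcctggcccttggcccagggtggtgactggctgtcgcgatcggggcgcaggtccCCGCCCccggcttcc
Cmtm3, chr8:104340494-104340593, plus strand: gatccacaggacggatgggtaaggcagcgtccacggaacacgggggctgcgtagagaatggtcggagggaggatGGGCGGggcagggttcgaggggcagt
Cmtm7, chr9:114781994-114782093, minus strand: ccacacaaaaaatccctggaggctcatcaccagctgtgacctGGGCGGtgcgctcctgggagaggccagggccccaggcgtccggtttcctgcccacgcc
Bmp5, chr9:75775265-75775364, plus strand: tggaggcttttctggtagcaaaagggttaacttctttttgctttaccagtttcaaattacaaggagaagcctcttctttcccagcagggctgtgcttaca

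The Tgfb2 window held a TATA box whose first base lay at position −31 from the start, together with an E-box and a CRE half-site, and the TATA box of Crhr2 began at −39. Neither Cmtm3 nor Cmtm7 held a TATA box, and both held a GC box. The Bmp5 window held none of the 4 motifs. A promoter entry was matched for 28 of the 38 members, in 38 windows, and the 250 bases before each start were searched. A TATA box was found for 3 of the 5 members higher in the adult (Tgfb2, Crhr2, Pdgfd) and for 1 of the 9 matched members higher at E15 (Pmch). That of Pdgfd began far upstream, at −160 and outside the last 100 bases, and that of Pmch at −27. A GC box was found for 2 of the 5 (Tgfa, Fgf2) and for 7 of the 9 (Apln, Cmtm3, Cmtm7, Fgf12, Hdgfrp3, Pthlh, Tmpo). A CRE half-site was found for 2 of the 5 and 1 of the 9, and an E-box for 1 of the 5 and 0 of the 9. Of the 14 matched members below 2-fold, 1 had a TATA box, 5 a GC box, 3 a CRE half-site and 2 an E-box. Over all 32851 mouse promoter windows, 12.4% held a TATA box and 32.7% a GC box, against 13.2% and 44.7% of the member windows. A CRE half-site was in 17.8% of all windows and 15.8% of the member windows, and an E-box in 6.02% and 7.89%. Genes with several windows had more chances of a match, and a match of letters is a description with no bearing on which factor binds.

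The transforming growth factor beta and bone morphogenetic protein list had 8 members, 7 ligands and the protease Bmp1, with 1 higher in the adult, 4 higher at E15 (Bmp1 among them) and a median difference of −0.99. The shares of all clusters, 22.9% higher in the adult and 24.4% at E15, and their median of −0.16 are the background to this and every family count that follows, and most families hold too few members to be set apart from it. Tgfb2, an isoform of transforming growth factor beta with roles in epithelial and mesenchymal development, had a merged value of 2.14 in the adult and −2.07 at E15. That was a difference of 4.21, or 18.4-fold, and the largest of all members in either direction. Tgfb3, another isoform acting on the same receptors, lay the other way, at −0.57 in the adult and 0.64 at E15 (2.31-fold).

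Gdf5, a ligand best known for joint and limb skeletal formation, had the largest difference towards E15, with −1.55 in the adult and 1.62 at E15 (8.98-fold, over 4 probe sets). Bmp5, another bone morphogenetic ligand, was at −0.77 in the adult and 0.53 at E15 (2.46-fold). Bmp1 was at −0.77 and 0.65 (2.69-fold). Despite its name, Bmp1 encodes a metalloproteinase that trims procollagen and frees bone morphogenetic ligands from their antagonists. The other members of the family differed by less than 2-fold, with differences of −0.77 for Gdf10, −0.51 for Bmp7 and 0.93 for Gdf15. The ligands of the family were spread over both directions, with the isoforms Tgfb2 and Tgfb3 on opposite sides.

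The list of receptors for this family had an entry for 5 of 13 symbols, and none differed by 2-fold. Their differences ran from −0.80 for Eng to 0.63 for Bmpr1b, with −0.67 for Acvrl1, −0.40 for Tgfbr1 and 0.27 for Bmpr2. Of 24 antagonists and binding proteins, 9 had an entry, and both of those past 2-fold were higher at E15. Wfikkn2, which binds growth differentiation factors, was at −1.70 in the adult and 1.56 at E15 (9.61-fold), and Fstl1, a follistatin-like secreted glycoprotein, was at −1.50 and 1.48 (7.91-fold). The latent-form carriers Ltbp1 and Ltbp4 differed by −0.50 and 0.36, and the bone morphogenetic antagonist Sostdc1 by 0.42.

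The fibroblast growth factor family had 6 members, with 1 higher in the adult, 1 higher at E15 and a median difference of −0.36. The cluster shared by Fgf2 and Bbs12 was at 0.46 in the adult and −0.54 at E15 (2.01-fold), and its probe sets cannot be assigned here to Fgf2, a heparin-binding mitogen, alone. Fgf9, a paracrine ligand, differed by 0.87. Fgf15, which acts as an endocrine factor in the adult gut and as a developmental ligand in the embryonic brain, differed by −0.99, with −0.27 in the adult and 0.72 at E15.

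The remaining 3 are fibroblast growth factor homologous factors, which stay inside the cell and bind voltage-gated sodium channels. Fgf12 was at −0.57 in the adult and 0.47 at E15 (2.05-fold), the cluster shared by Fgf11 and Spem1 differed by −0.72, and Fgf14 by 0.00. Of the receptor list, 2 of 5 symbols had an entry, with differences of 0.80 for Fgfrl1 and −0.19 for Fgfr4. Fgfbp1, which releases fibroblast growth factors from the matrix, was at −0.96 in the adult and 0.98 at E15 (3.83-fold).

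The epidermal growth factor family had 3 members, and 1 was past 2-fold. Tgfa, a membrane-anchored ligand of the epidermal growth factor receptor, was at 1.30 in the adult and −1.21 at E15 (5.70-fold). Egf was at 0.49 and −0.47, a difference of 0.96 that fell just short of 2-fold. Hbegf, a heparin-binding ligand of the same receptor, differed by −0.44. The receptor Egfr was at 0.58 in the adult and −0.71 at E15 (2.44-fold), the same direction as Tgfa and Egf, and the related receptor Erbb3 differed by −0.96.

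Of the platelet-derived and vascular endothelial growth factors, Pdgfd was the sole member. Pdgfd, a ligand of the platelet-derived growth factor receptor beta, was at 0.78 in the adult and −0.80 at E15 (2.99-fold). The receptors with an entry lay the other way. Pdgfrb was at −0.83 in the adult and 0.63 at E15 (2.75-fold), and Kdr, the main endothelial receptor for vascular endothelial growth factor, was at −0.68 and 0.56 (2.35-fold). Pdgfra differed by −1.33 (2.52-fold). Flt4, in a shared cluster, differed by −0.50. Pdgfrb and Pdgfra also mark pericytes and mesenchyme and Kdr marks endothelium, whose marker lists are given below.

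The insulin and insulin-like growth factor family had 2 members, neither past 2-fold. Igf2, a growth factor of fetal tissues that the adult choroid plexus also makes, was at 0.15 in the adult and −0.14 at E15, a difference of 0.29 over 13 probe sets. Its neighbour H19, a non-coding RNA of the same imprinted region, was at −3.22 in the adult and 3.12 at E15 (80.9-fold). Ins2 was at 0.48 and −0.14, a difference of 0.62 over 3 probe sets. The receptor Igf2r, which takes up Igf2, differed by 0.36.

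The list of antagonists and binding proteins for this family includes Gpc3, a cell surface proteoglycan that restrains growth and whose direct binding of Igf2 is disputed. Gpc3 was at −3.07 in the adult and 2.85 at E15 (60.4-fold). Igfbp4 was at −0.93 and 0.62 (2.92-fold) and Igfbp5 at −0.42 and 0.60 (2.02-fold), while Igfbp7 differed by 0.70 in the adult direction. Of 9 listed symbols 4 had an entry, and 3 were higher at E15, Gpc3 among them.

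**Figure D2:**
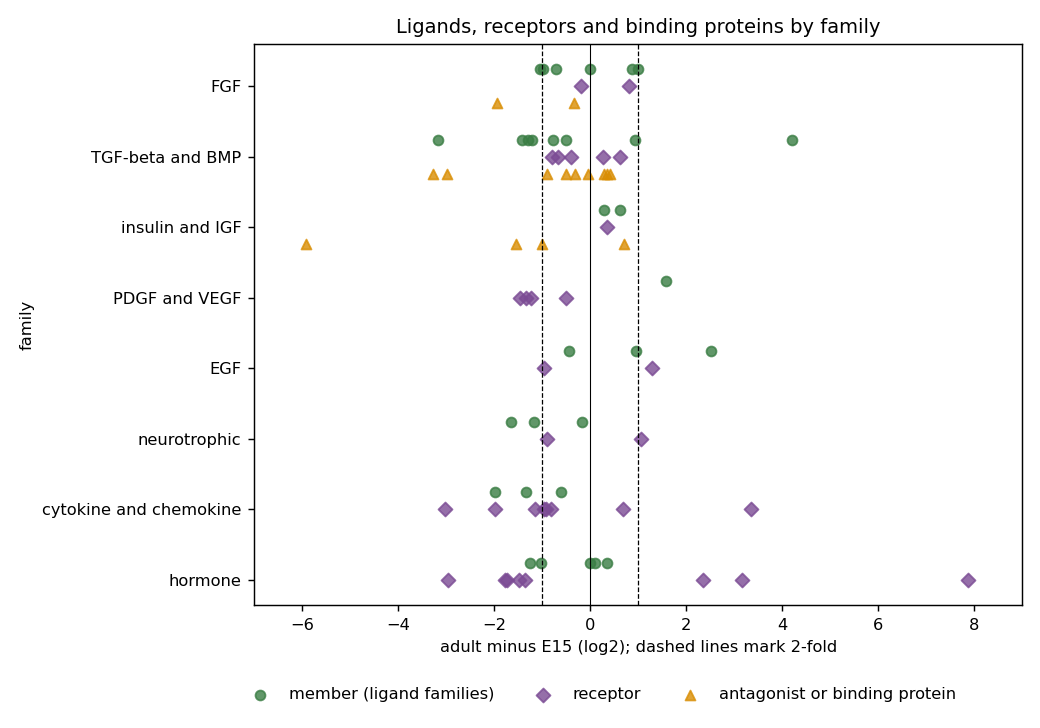
Difference of each cluster (adult minus E15, log2) by family, with dashed lines at 2-fold. Circles are the members in a ligand list, with Bmp1, Fgf12, Fgf14, Hdgfrp3 and the shared Fgf11 cluster among them. Diamonds are the receptors and triangles the antagonists or binding proteins. Every point is a single merged difference with no error, and the points farthest out are Prlr (7.87) among hormone receptors and Gpc3 (−5.92) among the listed antagonists and binding proteins.

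The neurotrophic group had 3 members, 2 of them higher at E15. Mdk, midkine, a heparin-binding factor of embryonic tissues, was at −0.84 in the adult and 0.81 at E15 (3.13-fold). Hdgfrp3, which belongs to a family of largely nuclear growth factor-related proteins, was at −0.55 and 0.63 (2.26-fold). The cluster shared by Zfp91-cntf and Cntf, a survival factor of motor neurons, differed by −0.17. Of the receptors, Ntrk2, which binds brain-derived neurotrophic factor, was at 0.59 in the adult and −0.47 at E15 (2.09-fold), and Gfra1 differed by −0.89.

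The cytokine list gave 3 members, all of the chemokine-like factor family, of which Cmtm3 and Cmtm7 span the membrane. Cmtm3 was at −1.07 in the adult and 0.92 at E15 (3.97-fold) and Cmtm7 at −0.69 and 0.65 (2.53-fold), while Cklf differed by −0.60. No member carried the chemokine activity term. The rule leaves out clusters annotated to the immune response, and the chemokines Ccl9, Cxcl16, Cx3cl1 and Ccl3, given below, were left out for that reason. Of the symbols listed, 40 of 49 chemokines and 64 of 71 interleukins, tumour necrosis factors and other cytokines had no entry in the tables. Of 14 cytokine and chemokine receptors, 8 had an entry. Il1r1, the signalling receptor for interleukin 1, was at 1.87 in the adult and −1.48 at E15 (10.2-fold). Kit, the stem cell factor receptor, was at −1.51 and 1.52 (8.13-fold), Cxcr4 at −0.87 and 1.12 (3.97-fold) and Lifr at −0.75 and 0.39 (2.20-fold).

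Of the peptide hormones, 5 were members, with 2 higher at E15 and 3 below 2-fold. Pthlh, parathyroid hormone-like peptide, a paracrine regulator of cartilage and epithelial development, was at −0.65 in the adult and 0.60 at E15 (2.38-fold). Its receptor Pth1r was at −0.98 and 0.74 (3.31-fold), the same direction as the ligand. Apln, apelin, a vascular peptide, was at −0.63 and 0.41 (2.05-fold, over 3 probe sets). Cck differed by 0.34, Ppy by 0.11 and Stc1, stanniocalcin, by 0.00.

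Of 13 hormone receptor symbols, 8 had an entry, and 7 of these are in the gene-level table, which lists only clusters past 2-fold, so that having an entry there fixed their being past it. Prlr, the prolactin receptor, was at 4.08 in the adult and −3.80 at E15 (234-fold), and Npr1, a natriuretic peptide receptor, at 1.22 and −1.13 (5.11-fold). Calcrl, which pairs with accessory proteins to bind calcitonin gene-related peptide or adrenomedullin, was at −1.64 and 1.33 (7.83-fold), and its partner Ramp2 at −0.38 and 0.97 (2.55-fold). The endothelin receptors Ednra (−0.84 and 0.94, 3.43-fold) and Ednrb (−0.72 and 0.76, 2.79-fold) were higher at E15 as well. Tie1, an endothelial receptor of the angiopoietin pathway, was at −0.51 and 0.59 (2.15-fold).

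The last 7 members fell in no ligand list. Crhr2 is the receptor for corticotropin-releasing hormone and urocortins, not a hormone, and was at 1.63 in the adult and −1.54 at E15 (8.99-fold). Tmpo, annotated through the thymic peptide name thymopoietin, encodes proteins of the nuclear lamina and was at −0.87 and 0.89 (3.39-fold). Pmch, the precursor of melanin-concentrating hormone, was at −0.48 and 0.53 (2.02-fold). The others differed by −0.84 for Grn, a secreted precursor also active in lysosomes, −0.62 for Wdr21, a WD-repeat protein, −0.07 for Tg, the thyroid hormone precursor, and 0.18 for the cluster shared by Mia1 and Rab4b.

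The label of the group as secreted proteins was checked against the deposited cellular component text. An extracellular annotation was held by 32 of the 38 members (84.2%), against 595 of all 3956 clusters. Those 32 had 5 members higher in the adult, 10 higher at E15 and a median difference of −0.31. The 6 without it were Fgf14, Wdr21, the shared Fgf11 cluster, Fgf12, Hdgfrp3 and Tmpo, of which 3 were higher at E15, none was higher in the adult and the median was −0.88. All 595 clusters with an extracellular annotation had a median of −0.09, with 25.2% higher in the adult and 29.9% higher at E15. An extracellular annotation does not make a protein secreted, as Crhr2 is a receptor, and Cmtm3 and Cmtm7 span the membrane. Wdr21 had no cellular component annotation at all.

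By molecular function, 23 members were annotated to growth factor activity, with 4 higher in the adult, 7 at E15 and a median of −0.44. The 10 annotated to cytokine activity had none higher in the adult, 5 higher at E15 and a median of −1.07. Of those 10, 6 (Gdf15, Bmp7, Gdf10, Bmp5, Bmp1, Gdf5) are counted under growth factor activity too. The 12 annotated to hormone activity had 1 higher in the adult, 4 higher at E15 and a median of −0.03. Over all clusters 22.9% were higher in the adult and 24.4% at E15, with a median of −0.16. The process terms held by the most members were cell proliferation, with 9 members (23.7%, against 0.961% of all clusters), then cell differentiation and multicellular organismal development, with the same 8 members each, and growth, with 6. Of the 9 annotated to cell proliferation 4 were higher in the adult and 3 at E15, of the 8 annotated to cell differentiation 1 and 3, and of the 6 annotated to growth 1 and 3.

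**Figure D3:**
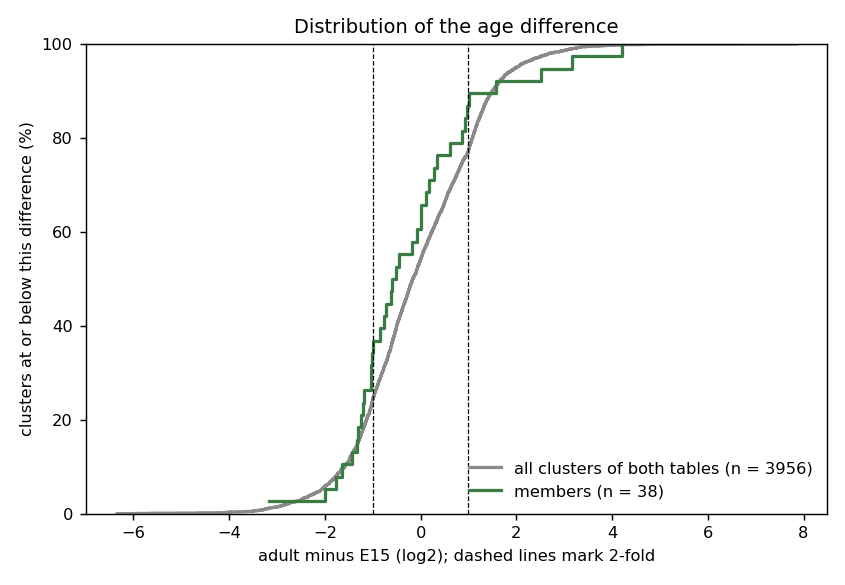
Cumulative share of clusters (%) at or below each difference (adult minus E15, log2) for the 38 members and for all 3956 clusters, with dashed lines at 2-fold. The member curve lies above that of all clusters over the middle of the range, with medians of −0.55 and −0.16.

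The rule left out 17 further clusters with the same molecular function terms, because of their immune response or matrix annotation. Of these 4 were higher in the adult and 5 at E15, and their median was 0.11. Their shares of 23.5% and 29.4% were near those of all clusters, 22.9% and 24.4%, whose median was −0.16. Ccl9, a chemokine, was at 1.64 in the adult and −1.70 at E15 (10.1-fold), followed in the adult direction by Cxcl16 (2.01), Cx3cl1 (1.26) and Fgf1 (1.19). Ptn, pleiotrophin, the close relative of Mdk, was at −0.91 and 1.29 (4.60-fold), the same direction as Mdk. Tgfb1, the other isoform beside Tgfb2 and Tgfb3, differed by −1.06, with Ccl3 (−1.24), Ogn (−1.22) and Tnfsf9 (−1.16) also past 2-fold towards E15. With these 17 added, 9 of 55 clusters were higher in the adult and 18 at E15.

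Over the whole lists, 33 of 67 receptor symbols had an entry, with 6 higher in the adult, 12 at E15 and a median of −0.81, and Crhr2 counts both there and as a member. Of the 12 higher at E15, Pdgfra, Ramp2 and Tie1 are in the splicing list alone, and so not among the clusters listed as past the authors' gene-level test. Of 36 antagonist and binding protein symbols 15 had an entry, with none higher in the adult, 6 at E15 and a median of −0.50. Over all 3956 clusters 22.9% were higher in the adult and 24.4% at E15, with a median of −0.16. The tables list clusters that passed a fold or a splicing threshold, so a gene with no entry was not analysed here, and its level cannot be read.

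Whole tissue was used, so fewer cells of a type and less RNA per cell cannot be told apart. Over all clusters 22.9% were higher in the adult and 24.4% at E15. Endothelial markers with an entry were higher at E15 in 5 of 6 clusters (−2.10 to −0.80), and those of mesenchyme and pericytes in 6 of 8 (−3.14 to −0.13). Erythroid markers were higher at E15 in 7 of 9 clusters (−5.55 to −0.72). Of 4 macrophage markers, Cd74 was higher in the adult (3.16) and Mrc1 at E15 (−2.36), with Csf1r at −0.92, Tyrobp at −0.54 and a median of −0.73. Of 5 neuronal markers 4 were higher in the adult, of which Snap25, Camk2a and Slc17a7 are in the splicing list alone, and Dcx was higher at E15. Choroid plexus epithelial markers had an entry for 9 of 18 symbols, with 4 higher in the adult and 2 at E15, and Ttr, Otx2, Clic6, Folr1 and Aqp1 had none. Which of these cell types contributed to the members' differences was not tested.

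The splicing list gives probe sets for 36 members, all but Pmch and Hdgfrp3, with a median of 8 per cluster (3 to 37), against 13 over the 3369 clusters of that list. Apln, Ins2, Gdf15 and Fgf9 had 3 each. Of the 18 members past 2-fold all are in the gene-level table, which lists clusters with a corrected p of at most 0.05 in the authors' unpaired test, and 16 of them are in the splicing list too. The 20 members below 2-fold come from the splicing list alone.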

How the data were processed

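RNA of 6 pooled samples, 3 for each age, was measured on Affymetrix mouse exon arrays. The authors deposited normalised log2 values merged to 1 value per age and centred for each transcript cluster. Per the study's description, gene-level values came from Affymetrix Power Tools with robust multi-array averaging, a per-chip median, an expression filter, an unpaired test with Benjamini-Hochberg correction and a 2-fold threshold, and the splicing list from PLIER and a splicing analysis of variance with a minimum index of 0.5. The genome build and tool versions are not given in the sources used here. The deposited fold change, direction and splicing index columns hold the authors' own comparisons and were not used, nor was the table of clusters common to both lists.

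The gene-level table (1805 clusters) and the splicing list (3369) were joined by cluster, with 1218 in both and 0 whose values differed. Probe set counts came from the splicing list as deposited. Differences, medians and counts were computed with Python 3.11.15 and numpy 2.4.6, figures were drawn with matplotlib 3.10.9, and the code was tested on simulated data. Receptor, antagonist and marker symbols were matched by symbol or RefSeq synonym. Members at 2-fold or more were named with both values, other members with their difference, and listed receptors and antagonists at 2-fold or more. The members and lists were chosen with earlier results of these data known. Members below 2-fold that are described with both values, and other partner genes, clusters left out by the rule and H19, were chosen after their values were seen.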

Additional observations from a re-analysis of the deposited data

How the results depend on the processing

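The 3 arrays of each age are merged, so the precision, the signal over background and the influence of any array or pool cannot be read. No limma fit, unpaired test or omission of replicates was run. No paired analysis was possible because the columns carry no replicate. The planned check against the deposited fold change was not run, since that column is the authors' own comparison. At 1.5-fold, 9 members were higher in the adult and 19 at E15, against 31.5% and 36.8% of all clusters, and at 3-fold 3 and 4. Receptors or binding proteins numbered 6 in the adult and 18 at E15 at 2-fold, 10 and 26 at 1.5-fold, and 4 and 9 at 3-fold, where all clusters had 8.87% and 9.98%. In the gene-level table alone they numbered 6 and 15, but every cluster there is past 2-fold, 48.8% in the adult and 51.2% at E15. Re-centring, which moves every difference alike, gave 8 members higher in the adult, 10 at E15 and a median of −0.40. All clusters then had a median of −0.01. Egf, Gdf15 and Fgf9 passed 2-fold, Pmch, Apln and Fgf12 no longer did, and Tg changed sign. The median was −1.19 in the gene-level table alone, where all clusters had −1.01. Without electronic annotations 13 members were left, 3 higher in the adult and 3 at E15, and the median was 0.00, against −0.16 for all clusters. With no exclusions 9 of 55 clusters were higher in the adult and 18 at E15, against 22.9% and 24.4% of all clusters. Their median was −0.44, against −0.16. With an extracellular annotation required, an alternative chosen after seeing the data, the median was −0.31. Exact term names, clusters with 1 symbol and 1 cluster per gene gave medians of −0.51, −0.61 and −0.55 and moved no member count by over 1.5 times. The cause of these shifts was not tested beyond the members each setting keeps.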
